A study of Mus musculus with 9 samples.

Results

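Expression of 10 genes of the insulin-like growth factor (IGF) and insulin system was compared between mouse embryonic fibroblast lines that differ in Oga, the gene of O-GlcNAcase, the enzyme that takes the sugar O-GlcNAc off proteins. The genes were the ligand Igf1, the receptors Igf1r and Insr, the adaptor Irs1 and the 6 binding proteins Igfbp2, Igfbp3, Igfbp4, Igfbp5, Igfbp6 and Igfbp7. They were chosen by gene symbol, with earlier results of these data known. They are 10 of the 18194 genes named on the array, and their 28 probe sets (of 45037 other than controls) were all kept. Mouse embryonic fibroblasts (MEFs) are cultures grown from minced embryos, here female embryos at E12.5, in DMEM medium. The knockout (KO) line was labelled Oga knockout, the heterozygous (Het) line Oga heterozygous and the wild-type (WT) line WT, with 3 arrays each. All came from matings of Oga heterozygotes, themselves bred from an Oga floxed male on a C57B1/6 background and an MMTV-cre female of the strain B6129-Tgn(MMTV-Cre)1Mam, in which the mouse mammary tumour virus promoter drives Cre; the labels do not say which lines still carry Cre. The series' design text calls the arrays of a line technical replicates, and they share 1 line code, so every p-value measures the spread between arrays of a line, and genotype cannot be told apart from any other difference between the 3 lines.

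IGF1 is a secreted growth factor that binds the IGF1 receptor, a tyrosine kinase at the cell surface, while insulin acts mainly through the related insulin receptor. Both receptors phosphorylate adaptors such as IRS1, which pass the signal to PI3K and AKT for growth, survival and nutrient uptake. Binding proteins of the IGFBP family hold IGFs outside the cell, lengthen their life and limit or prolong their access to the receptor, and fibroblasts secrete several of them.

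Oga itself matched the labels. Its brightest probe set averaged 6.06 ± 0.026 in KO arrays, which is below the low-value cut used here, and 11.92 ± 0.033 in WT arrays (log2 value, SD, n = 3 arrays each). All 3 Het arrays held the same value there, 11.16, and Het differed from WT by -0.76. Over the other Oga probe sets, KO minus WT ran from -4.76 to -1.42 and Het minus WT from -1.29 to -0.15. Between 2.22% and 4.53% of values were equal in pairs of arrays of a line. Arrays of a line correlated at r = 0.997 to 0.999 over all probe sets, against 0.989 to 0.991 between KO and WT. Fibroblast markers were bright in every line: the summed level of 12 markers, as a log2 value, ran from 17.31 to 17.36 in KO, from 17.39 to 17.40 in Het arrays and stood at 17.43 in the WT arrays. The sum weighs the brightest markers most. Of these markers 1 fell in KO against WT, the receptor gene Pdgfra (log2 difference -2.55), and 0 rose, with a list median of -0.12. By the limma adjusted p alone 8 of the 12 differed, 2 higher and 6 lower, beside 50.6% of all genes. Among the lower ones was Dcn (-0.93), short of 2-fold. Pdgfra is a common surface marker of embryonic mesenchyme, and it read 8.91 in KO, 10.84 in Het and 11.46 in WT arrays on average.

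The promoters of the members that moved most are shown first, to set those of the binding proteins and ligand that were lower in KO beside that of the binding protein that was higher. Each is the 250 bases before the transcription start in RefSeq's table for GRCm38.p6, written 5′ to 3′ along the gene. Capitals mark GGGCGG, the core of the Sp1 site, or TATAAA, a form of the TATA box, on either strand.
Igf1, chr10:87860861-87861110, plus strand: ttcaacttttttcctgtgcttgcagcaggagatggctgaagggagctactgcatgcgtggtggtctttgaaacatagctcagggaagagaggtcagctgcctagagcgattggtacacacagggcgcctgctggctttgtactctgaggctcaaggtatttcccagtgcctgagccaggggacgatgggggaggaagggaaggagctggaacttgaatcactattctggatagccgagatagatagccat
Igfbp3, chr11:7213924-7214173, minus strand: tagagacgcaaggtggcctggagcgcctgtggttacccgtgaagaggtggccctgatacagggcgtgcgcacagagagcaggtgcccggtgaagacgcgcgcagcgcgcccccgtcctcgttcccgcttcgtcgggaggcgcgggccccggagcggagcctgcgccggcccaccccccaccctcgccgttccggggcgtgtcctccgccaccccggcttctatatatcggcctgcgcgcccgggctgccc
Igfbp4, chr11:99040994-99041243, plus strand: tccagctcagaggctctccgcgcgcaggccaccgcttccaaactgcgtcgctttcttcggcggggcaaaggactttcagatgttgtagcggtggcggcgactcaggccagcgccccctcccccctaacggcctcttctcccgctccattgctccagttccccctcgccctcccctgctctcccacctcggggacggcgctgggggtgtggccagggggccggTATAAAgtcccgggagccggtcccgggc
Igfbp7, chr5:77408046-77408295, minus strand: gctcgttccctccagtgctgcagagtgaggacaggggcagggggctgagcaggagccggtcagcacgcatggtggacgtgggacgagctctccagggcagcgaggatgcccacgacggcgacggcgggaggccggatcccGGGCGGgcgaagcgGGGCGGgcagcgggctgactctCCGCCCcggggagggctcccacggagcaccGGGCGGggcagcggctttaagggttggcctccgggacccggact
The Igfbp7 window held GGGCGG at 4 places, beginning 110, 96, 74 and 44 bases before the start, and TATAAA at 0. The Igfbp4 window held TATAAA once, beginning 28 bases before the start, and GGGCGG at 0 places. The windows of Igf1 and Igfbp3 held neither of these exact strings. Variant TATA sequences were not searched, so the tatatat near the end of the Igfbp3 window is not marked. GGGCGG lies in 32.7% and TATAAA in 12.4% of 32851 promoter windows of this length, and GTAAACA, the core of the FOXO site, in 3.2%; GTAAACA was in 0 of the windows of members. CG pairs numbered 5 in the Igf1, 32 in the Igfbp3, 22 in the Igfbp4 and 26 in the Igfbp7 window, beside a median of 6 over all windows. Outside these, GGGCGG was found in windows of Igfbp2, Irs1 and Igf1r and TATAAA in that of Igfbp6, 148 bases before the start. The levels of Igfbp2, Irs1, Igf1r and Igfbp6 differed by less than 2-fold. So did those of Igfbp4 (1.97-fold) and Igfbp7 (1.74-fold) in KO against WT at their brightest probe sets. Irs1, with GGGCGG, was lower in KO, and the Igfbp5 window held neither motif. The starts used for Igf1, Igfbp3 and Igfbp4 lie inside the span that the RefSeq gene table gives to the gene, so other starts of these genes may lie elsewhere. Of the 10 members, 9 have a promoter in the table.

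The KO line was compared with WT first, to see which parts of the system differed when both copies of Oga were lost. The ligand and several binding proteins were lower in the KO line, 1 binding protein was higher, and the receptors stayed within a narrow range. A probe set was called when limma's Benjamini-Hochberg adjusted p over 27022 probe sets was below 0.05 and the difference reached 2-fold (1 on the log2 scale); the words rose and fell are kept for those. By the brightest probe set of each gene, Igf1 and Igfbp3 fell, 0 members rose and 8 were not called. Among all 12962 genes measured this way 3.56% were called, 2.58% lower and 0.988% higher. By the adjusted p alone 8 members differed, 2 higher and 6 lower, beside 50.6% of all genes. Over probe sets, 9 of 27 past the low-value cut were called, 8 of Igf1, Igfbp3 and Igfbp4 lower and 1 of Igfbp7 higher, beside 2.88% of all probe sets (1.89% lower and 0.988% higher). These 9 include repeat probe sets of the same genes, 4 of them of Igfbp4. Since the members were chosen with earlier results of these data known, the shares do not test them. The median difference of the 10 members was -0.41, against -0.03 over all genes. Only 1 member probe set, the dimmest of Insr, lay below the cut at a mean log2 value of 6.22, and it was not tested.

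**Figure D1:**
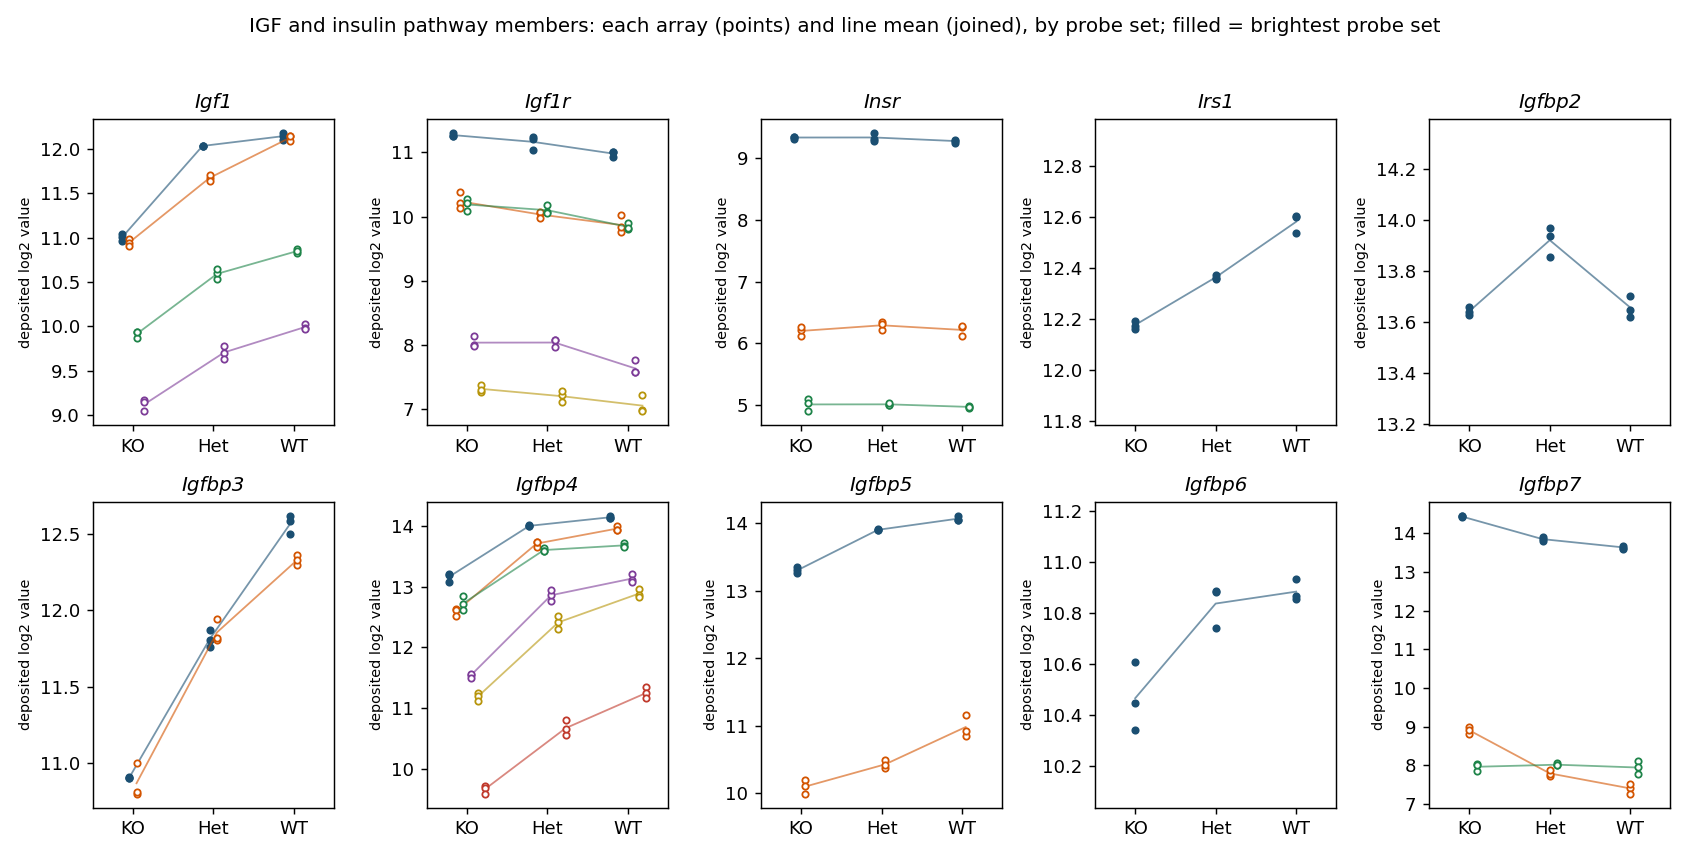
Deposited log2 values (vertical axis, with a different range in each panel of at least 1.2 units) of the 28 probe sets of the 10 members in the 3 KO, 3 Het and 3 WT arrays; points are arrays, lines join line means, and filled points are the brightest probe set. All 4 Igf1 probe sets, both of Igfbp3 and of Igfbp5 and all 6 of Igfbp4 are ordered KO, Het, WT from low to high.

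Igf1, the ligand, read 11.04, 11.01 and 10.96 in KO arrays, 12.04, 12.04 and 12.03 in Het arrays and 12.15, 12.11 and 12.18 in WT arrays at its brightest probe set. The KO arrays stood apart below the rest there, and the Het arrays lay just under WT. Igf1 thus fell in KO against WT by 2.21-fold (log2 difference -1.14 ± 0.041, SE, limma adjusted p = 6.3e-09). Its second probe set fell by 1.18, and the other two differed by -0.94 and -0.87, short of 2-fold (adjusted p = 4.2e-08 and 2.3e-07). At these dimmer probe sets Het lay further below WT, with differences of -0.45 to -0.26. KO and WT arrays did not overlap at any of the 4; 56.2% of all probe sets had no such overlap. Igf1 is also made by tissue macrophages. All 15 macrophage markers fell in KO against WT, with a median of -1.77; their summed level ran from 13.97 to 14.04 in KO, from 15.47 to 15.55 in Het and from 15.83 to 15.86 in WT arrays, and none lay below the low-value cut. The largest of these falls were in the lysosomal glycoprotein gene Cd68 (-2.63) and the mannose receptor gene Mrc1 (-2.50). The part of macrophage RNA in the Igf1 difference was not tested. In such bulk RNA, fewer cells of a type and less RNA per cell cannot be told apart.

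Igf1r, which encodes the receptor for IGF1, read 11.30, 11.26 and 11.25 in KO arrays, 11.04, 11.21 and 11.25 in Het arrays and 11.01, 11.002 and 10.93 in WT arrays. The KO arrays lay above the WT arrays with a small gap, and the Het arrays lay between or beside them. The difference was 0.29 ± 0.057 in KO against WT (SE, limma adjusted p = 0.00174), or 1.22-fold. Its other 4 probe sets gave 0.26 to 0.40, all with adjusted p below 0.05 and none near 2-fold.

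Insr, the insulin receptor gene, read 9.34, 9.32 and 9.35 in KO arrays, 9.41, 9.29 and 9.32 in Het arrays and 9.30, 9.25 and 9.29 in WT arrays. Its difference in KO against WT was 0.06, with a 95% interval from -0.04 to 0.15 (limma adjusted p = 0.318), so the deposited values place any change of this probe set well inside 2-fold. Its second probe set, close to the cut, gave -0.02 with an interval from -0.15 to 0.12. The arrays of the 3 lines were thus nearly level for this receptor.

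Irs1, the adaptor that both receptors phosphorylate, read 12.19, 12.18 and 12.16 in KO arrays, 12.37, 12.36 and 12.36 in Het arrays and 12.61, 12.54 and 12.60 in WT arrays. The lines did not overlap, with KO lowest and WT highest. The difference of KO from WT was -0.41 ± 0.039 (SE, limma adjusted p = 1.1e-05), 1.32-fold and not called.

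Igfbp3, the main IGF carrier of serum and also a secreted fibroblast protein, had the largest difference of any member by its brightest probe set. It read 10.91, 10.91 and 10.90 in KO arrays, 11.76, 11.81 and 11.87 in Het arrays and 12.62, 12.59 and 12.497 in WT arrays. The 3 lines formed 3 separate steps, with Het near the middle. Igfbp3 fell in KO against WT by 3.16-fold (log2 difference -1.66 ± 0.047, SE, limma adjusted p = 1.4e-09). Its other probe set read 10.80, 10.999 and 10.81 in KO arrays, 11.81, 11.82 and 11.94 in Het arrays and 12.30, 12.36 and 12.33 in WT arrays. There Igfbp3 fell by 1.46 on the log2 scale (adjusted p = 2.2e-08), with the same order of lines. Igfbp1, a binding protein gene made chiefly in liver and a neighbour of Igfbp3 on chromosome 11, lay below the low-value cut in all lines, at means of 4.68 in KO, 4.84 in Het and 4.65 in WT arrays.

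Igfbp4, a binding protein best known for holding IGFs away from their receptor, was measured by 6 probe sets, all lower in KO. The brightest read 13.21, 13.19 and 13.08 in KO arrays, 14.01, 13.99 and 13.99 in Het arrays and 14.17, 14.13 and 14.13 in WT arrays, where the deposited values of any probe set end at 15.15. The KO arrays stood apart, and Het lay just below WT. Its difference of -0.98 ± 0.045 (SE, limma adjusted p = 3.8e-08) came to 1.97-fold and was not called. Another bright one gave -0.95, while the other 4 fell by 1.36 to 1.69 on the log2 scale. One of these 4 read 11.25, 11.21 and 11.12 in KO arrays, 12.30, 12.41 and 12.52 in Het arrays and 12.96, 12.86 and 12.83 in WT arrays, a fall of 3.23-fold (-1.69 ± 0.062, adjusted p = 8.0e-09). The dimmest, at 9.67 in KO, 10.67 in Het and 11.25 in WT arrays on average, fell by 1.58. The call for Igfbp4 thus depends on the probe set: averaged over its probe sets, Igfbp4 differed by -1.36 and passed, and it also passed at the brightest probe set with quantile normalization (-1.04) or without KO replicate 1 (-1.004). The macrophage markers, with a median of -1.77 in this comparison, moved with Igfbp4 as well. So did the cartilage markers, with a median of -1.01. The part of either list in the Igfbp4 difference was not tested.

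Igfbp5, which binds matrix and is abundant in muscle and mesenchyme, read 13.34, 13.30 and 13.26 in KO arrays, 13.89, 13.92 and 13.89 in Het arrays and 14.11, 14.04 and 14.05 in WT arrays. The lines did not overlap there, with KO lowest and Het nearer to WT, while at the dimmer probe set Het lay nearer to KO (-0.33 for KO minus Het, -0.55 for Het minus WT). The difference of KO from WT was -0.76 ± 0.041 (SE, limma adjusted p = 1.3e-07), 1.70-fold, and -0.88 at its dimmer probe set, neither called. Igfbp2, which binds both IGFs and stands next to Igfbp5 on chromosome 1, read 13.63, 13.64 and 13.66 in KO arrays, 13.85, 13.94 and 13.97 in Het arrays and 13.65, 13.70 and 13.62 in WT arrays. KO and WT arrays overlapped there, and Het was the highest line. Its difference of KO from WT was -0.01, with a 95% interval from -0.11 to 0.08 (limma adjusted p = 0.814). The neighbouring genes thus gave unlike values: the interval of Igfbp5, from -0.86 to -0.67, does not reach that of Igfbp2.

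Igfbp6, a binding protein with a preference for IGF2, read 10.45, 10.34 and 10.61 in KO arrays, 10.74, 10.89 and 10.88 in Het arrays and 10.86, 10.93 and 10.87 in WT arrays. KO arrays were lower than all others, while Het and WT overlapped. The difference of KO from WT was -0.42 ± 0.069 (SE, limma adjusted p = 5.7e-04), 1.34-fold and not called.

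Igfbp7, a matrix-associated relative that binds IGFs only weakly, was the binding protein gene that was higher in KO. It read 14.43, 14.41 and 14.45 in KO arrays, 13.79, 13.85 and 13.90 in Het arrays and 13.62, 13.67 and 13.60 in WT arrays at its brightest probe set. KO stood apart above the other lines, with Het a little above WT. The difference was 0.80 ± 0.044 (SE, limma adjusted p = 1.5e-07), 1.74-fold and not called. Its second probe set read 8.82, 8.99 and 8.90 in KO arrays, 7.72, 7.76 and 7.89 in Het arrays and 7.42, 7.52 and 7.26 in WT arrays, and Igfbp7 rose there by 2.83-fold (1.503 ± 0.074, adjusted p = 6.4e-08). Its remaining probe set, at means of 7.96 in KO, 8.01 in Het and 7.94 in WT arrays, gave 0.02, with an interval from -0.16 to 0.20, so the size of the Igfbp7 difference depends on the probe set. Igfbp7 is known as a product of pericytes and vascular cells. Of 8 smooth muscle and pericyte markers 3 rose in KO against WT, with a median of 0.72, and their summed level ran from 16.21 to 16.23 in KO, from 15.86 to 15.88 in Het and from 15.64 to 15.66 in WT arrays. These were Rgs5 (2.13), the calponin gene Cnn1 (1.65) and Mcam (1.35), and their part in the Igfbp7 difference was not tested. Of 8 endothelial markers 5 lay below the low-value cut (Cdh5, Emcn, Pecam1, Tek and Tie1), and 0 of the other 3 were called. The summed level of all 8 was higher in KO, from 10.43 to 10.52, against 9.96 to 9.995 in Het and 10.15 to 10.19 in WT arrays. Flt1, a receptor for vascular growth factors, was 0.47 higher in KO than in WT (limma adjusted p = 3.1e-05). Kdr and Esam differed by only 0.02 and 0.04. Cdh5, Pecam1, Tek and Tie1 averaged lower in KO than in WT arrays, for instance 5.12 against 5.38 for Pecam1. The higher sum was thus not shared by most of the list. Emcn, an endothelial surface glycoprotein gene named after its values were seen, averaged 6.66 in KO, 5.44 in Het and 5.67 in WT arrays, a difference of 0.99 between KO and WT (adjusted p = 7.5e-07 with no filter on low values). The part of endothelial RNA in the Igfbp7 difference was not tested either.

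**Figure D2:**
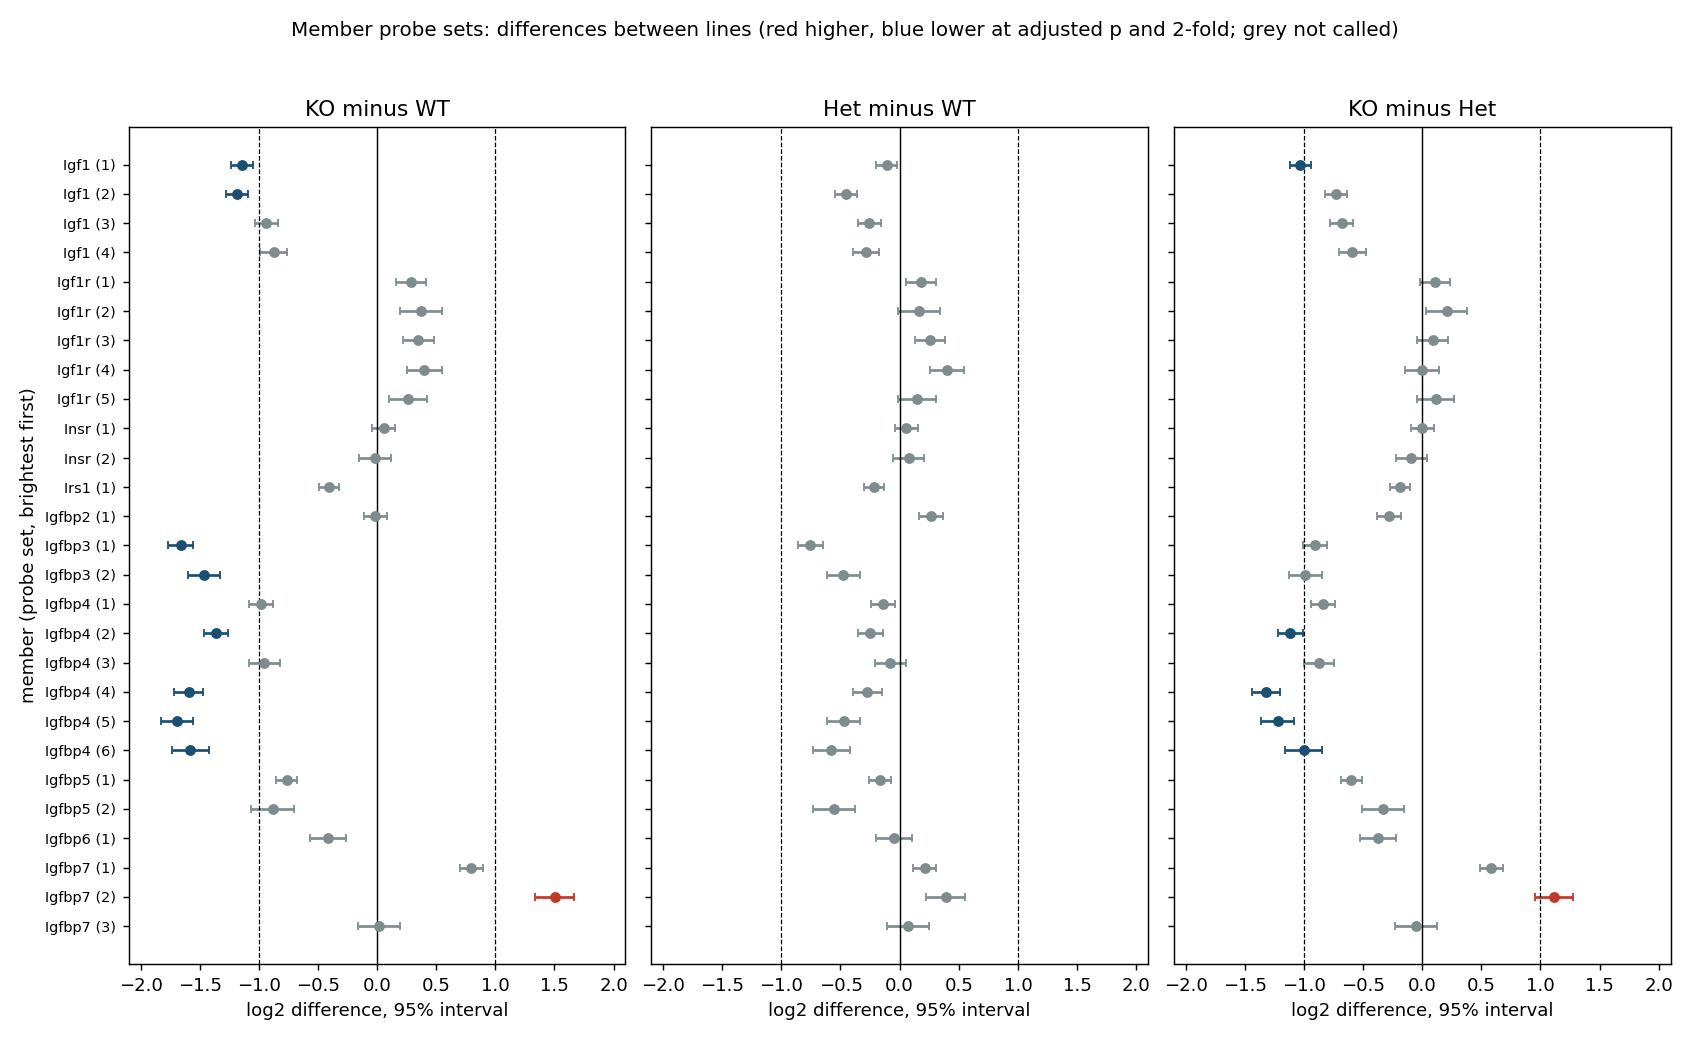
Log2 differences (horizontal axis) with 95% intervals for the 27 tested member probe sets, in KO minus WT, Het minus WT and KO minus Het; rows are numbered from the brightest probe set of a gene and dashed lines mark 2-fold. Blue marks probe sets that fell and red those that rose: 8 and 1 in KO minus WT, 0 in Het minus WT, and 5 and 1 in KO minus Het.

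The Het line, with 1 copy of Oga lost, was then compared with WT. None of the 10 members reached 2-fold by limma with adjusted p below 0.05, where 0.255% of all genes did, and none of their 27 tested probe sets did, where 0.359% of all probe sets did. At an unadjusted p under 0.05 there were 8 members, beside 42.1% of all genes, and 7 passed the adjusted threshold alone, 3 higher and 4 lower, beside 32.6% of all genes (12.6% higher and 20% lower). Of the member probe sets, 20 had an unadjusted p under 0.05, beside 46.2% of all probe sets. The largest difference was in Igfbp3, at -0.75 ± 0.047 (SE, limma adjusted p = 3.2e-06), or 1.69-fold, with -0.48 at its other probe set. Igf1 gave -0.11 (adjusted p = 0.0563) at its brightest probe set and -0.45 to -0.26 at the others, which did pass the adjusted threshold. Igfbp4 gave -0.14 at its brightest probe set and -0.58 to -0.08 at the other 5. Igfbp5 differed by -0.17 and -0.55, Irs1 by -0.22 and Igfbp6 by -0.05 (adjusted p = 0.625). On the other side, Igfbp2 was higher by 0.26 (adjusted p = 0.0012), Igfbp7 by 0.21 and Igf1r by 0.18 (adjusted p = 0.0276). Insr gave 0.06, with an interval from -0.04 to 0.16. In Het against WT the median was -0.35 over macrophage markers and 0.31 over smooth muscle and pericyte markers, with 0 of 15 and 0 of 8 called. It was 0.75 over skeletal muscle markers, of which 1 of 8 rose (Actc1, 1.34), and -0.37 over cartilage markers, of which 1 of 5 fell (Comp, -1.04).

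KO was also set against Het, which shares its KO arrays with the first comparison and its Het arrays with the second. Among the members, Igf1 fell (log2 difference -1.03 ± 0.041, SE, limma adjusted p = 3.1e-08), 0 rose and 9 were not called, beside 2% of all genes called (1.37% lower and 0.625% higher). By the adjusted p alone 8 members differed, beside 49.2% of all genes. Median centring of the arrays took Igf1 to -0.98 and the mean of its probe sets to -0.76, both short of 2-fold. Over probe sets 6 of 27 were called, 1 of Igf1 and 4 of Igfbp4 lower and 1 of Igfbp7 higher, beside 1.64% of all probe sets (1.01% lower and 0.625% higher). The Igfbp4 falls ran from -1.32 to -1.001, and the smallest of them lies on the 2-fold limit. Igfbp3 gave -0.91 and -0.99 at its probe sets, Igfbp5 gave -0.60 and -0.33, Igfbp6 gave -0.37 and Igfbp2 gave -0.28. Igfbp7 was higher by 0.58 at its brightest probe set and rose by 1.11 at the second. Of 15 macrophage markers 14 fell here as well, with a median of -1.44.

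The order of the lines was read from the brightest probe sets. Means ran KO, Het, WT from low to high in 6 members (Igf1, Irs1, Igfbp3, Igfbp4, Igfbp5 and Igfbp6) and WT, Het, KO in 2 (Igf1r and Igfbp7), while Het was highest in Igfbp2 and Insr. KO and WT arrays did not overlap in 9 of 10 members, where 61.8% of all genes did not, and Het and WT did not overlap in 8, where 47.7% did not. KO and Het did not overlap in 9, where 57.9% did not. Neighbours in these orders that did not pass the adjusted threshold were Het and WT for Igf1 and Igfbp6, KO and Het for Igf1r, KO and WT for Igfbp2, and all lines for Insr.

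Other genes of the pathway were read from a list of 62, of which 57 had values and 51 passed the low-value cut. In KO against WT 1 rose and 1 fell, in Het against WT 0 were called, and in KO against Het 1 rose and 0 fell, so the shares lie near those of all genes (3.56%, 0.255% and 2%). The list medians were -0.01, -0.03 and -0.02 in that order. By limma 26 of the 51 had an unadjusted p under 0.05 in Het against WT, where 42.1% of all genes did. The adjusted threshold alone was passed by 19, where 32.6% of all genes passed it. In KO against WT these counts were 26 and 22, beside 56.4% and 50.6% of all genes. In KO against Het they were 31 and 29, beside 55.7% and 49.2%. Igf2, the other IGF ligand and an imprinted gene, read 14.56, 14.61 and 14.55 in KO arrays, 14.80, 14.81 and 14.82 in Het arrays and 14.87, 14.88 and 14.86 in WT arrays, close to the upper end of the deposited values. Its difference of KO from WT was -0.30 (limma adjusted p = 9.2e-05) there and -0.91 at its dimmer probe set, neither called. Igf2r, the receptor that clears IGF2, averaged 12.24 in KO, 12.23 in Het and 12.25 in WT arrays, a difference of -0.01 between KO and WT (adjusted p = 0.823). Irs2, the other widespread adaptor, averaged 9.40 in KO, 9.28 in Het and 9.03 in WT arrays, 0.38 higher in KO than in WT (adjusted p = 0.00255) and not called. Of the other 4 measured adaptors, 3 lay between -0.13 and -0.07 in KO minus WT. The remaining one, Grb14, an inhibitor of insulin receptor signalling, was 0.89 higher (adjusted p = 7.0e-07), not called, and is named after its value was seen.

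Fbxo32, which encodes the ubiquitin ligase atrogin-1 and is a known target of FOXO factors in muscle, read 8.35, 8.40 and 8.51 in KO arrays, 7.28, 7.39 and 7.49 in Het arrays and 7.39, 7.27 and 7.34 in WT arrays. KO stood above the other lines, which overlapped. Fbxo32 rose by 2.13-fold in KO against WT (log2 difference 1.09 ± 0.064, SE, limma adjusted p = 2.5e-07) and by 1.04 in KO against Het, with 1.43 and 1.49 against WT at its other probe sets. Without Het replicate 1 (0.98) or KO replicate 3 (0.99) its difference of KO from Het was within 2-fold. Of 10 skeletal muscle markers 8 passed the cut and 5 of them rose in KO against WT (median 1.17), with Myod1 and Myf5 below the cut. These were Tnni1 (1.83), Actc1 (1.69), Acta1 (1.61), Myh3 (1.195) and Des (1.15), which encode contractile or filament proteins. The other 3 were not called, the lowest of them at -0.04. The summed level of that list ran from 12.15 to 12.18 in KO, from 11.50 to 11.63 in Het and from 10.93 to 10.99 in WT arrays. In Het against WT the list median was 0.75, while Fbxo32 averaged 7.39 in Het and 7.33 in WT arrays. The part of this list in the Fbxo32 difference was not tested. Over the 11 measured FOXO factors and FOXO target genes 1 rose and 0 fell, where 3.56% of all genes were called. Their median was near 0 (-3.3e-04). By the limma adjusted p alone 8 of the 11 differed, 4 higher and 4 lower, beside 50.6% of all genes.

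Socs2, which encodes a suppressor of growth hormone receptor signalling, read 9.39, 9.30 and 9.44 in KO arrays, 9.59, 9.65 and 9.65 in Het arrays and 10.41, 10.45 and 10.49 in WT arrays. WT stood above the other lines. Socs2 fell in KO against WT (log2 difference -1.07 ± 0.049, SE, limma adjusted p = 3.7e-08), and differed by -0.82 in Het against WT, short of 2-fold. Averaged over its probe sets, Socs2 differed by -0.71 in KO against WT and was not called. Among 8 measured negative regulators of receptor signalling it was the one called, where 3.56% of all genes were, and the list median was -0.03. Of 16 measured genes of PI3K, Akt and mTOR signalling 0 were called in KO against WT by limma, where 3.56% of all genes were. An unadjusted p under 0.05 was found for 6, beside 56.4% of all genes, and the differences ran from -0.79 to 0.51.

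Pappa, which encodes the protease that cuts IGFBP4 and so frees IGF from it, was named after its values were seen. It read 12.27, 12.18 and 12.25 in KO arrays, 11.64, 11.54 and 11.59 in Het arrays and 11.23, 11.20 and 11.28 in WT arrays. The 3 lines did not overlap, and their order was the reverse of that of Igfbp4. The difference of KO from WT was 0.99 ± 0.046 (SE, limma adjusted p = 4.1e-08), 1.99-fold and not called, while its second probe set rose by 1.12 and the dimmest differed by 0.45. Averaged over its probe sets, Pappa differed by 0.85 and was not called. It passed at the brightest probe set with median centring (1.01), without WT replicate 3 (1.02) or without KO replicate 2 (1.02). The other 5 measured proteases and protease inhibitors of the list lay between -0.35 and 0.10. Of the list of 6, 0 were called, where 3.56% of all genes were.

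**Figure D3:**
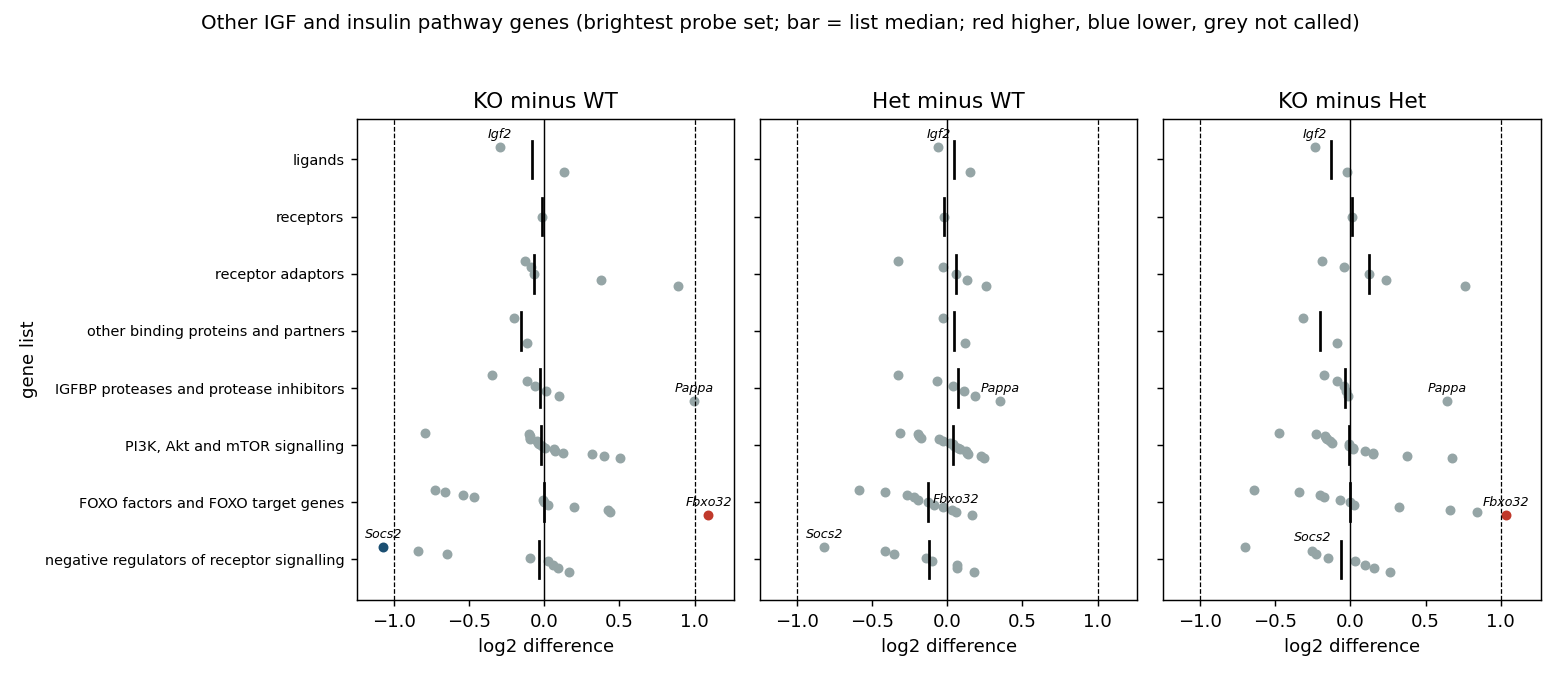
Log2 differences (horizontal axis) of the 51 measured other pathway genes at their brightest probe set, by list, in KO minus WT, Het minus WT and KO minus Het; black bars are list medians and dashed lines mark 2-fold. Fbxo32 (1.09) and Socs2 (-1.07) pass in KO minus WT, Pappa (0.99) lies on the limit, and 0 genes pass in Het minus WT.

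Of the remaining marker lists, for other cells that such a culture can hold, cartilage markers had a median of -1.01 in KO against WT, with 3 of 5 that fell, Col9a1 (-2.84), Comp (-1.51) and Sox9 (-1.01), and a summed level from 11.42 to 11.49 in KO, from 11.73 to 11.87 in Het and from 11.96 to 12.03 in WT arrays. Neural markers had a median of 0.29, with 1 of 7 that rose, Nes (1.24). By the limma adjusted p alone 5 of the 7 differed, 4 higher and 1 lower, beside 50.6% of all genes. The lower one was Map2 (-0.86, adjusted p = 5.4e-06), short of 2-fold. Liver markers were dim: Alb, Afp and Fgb lay below the low-value cut, and 0 of the other 2 were called.

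**Figure D4:**
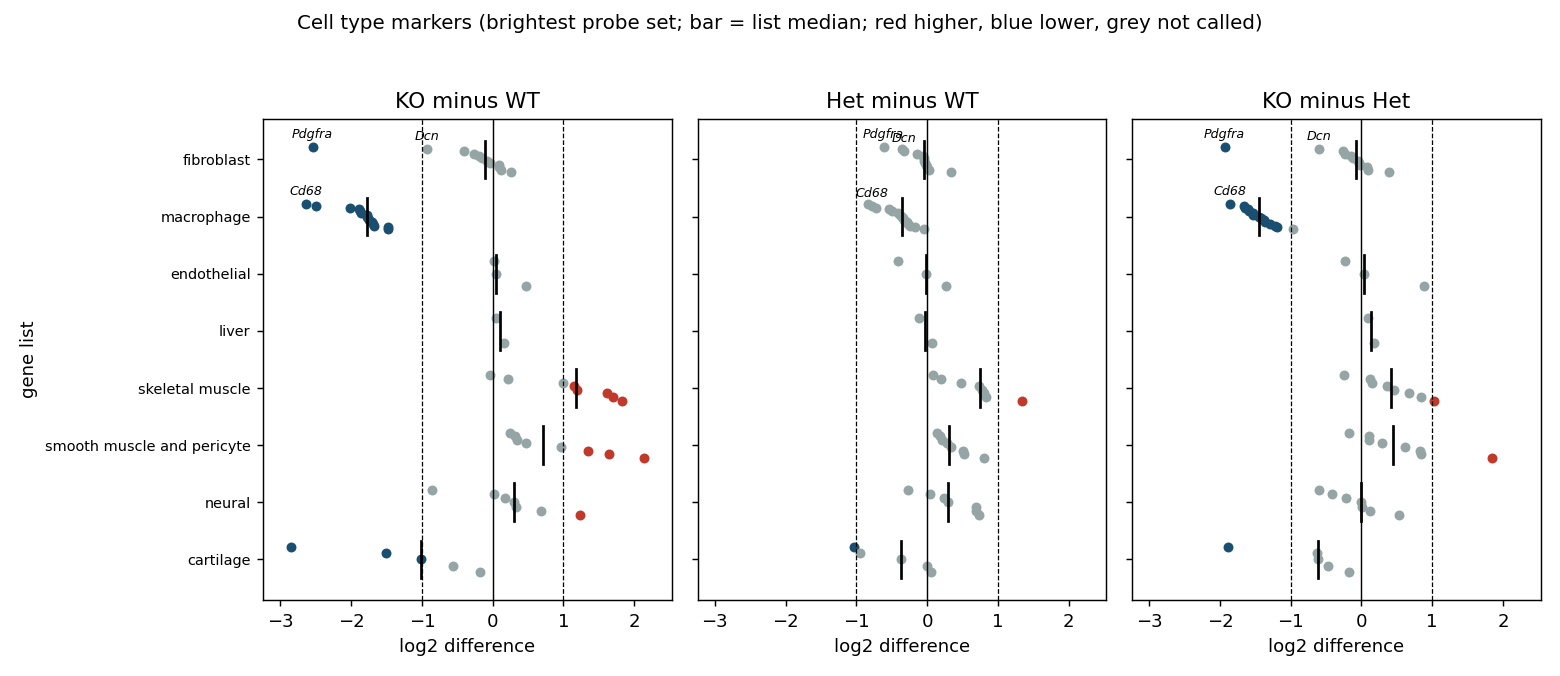
Log2 differences (horizontal axis) of cell type markers at their brightest probe set, by list, in KO minus WT, Het minus WT and KO minus Het; black bars are list medians and dashed lines mark 2-fold. All 15 macrophage markers lie below the limit in KO minus WT (median -1.77), and skeletal muscle markers have a median of 1.17 there.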

How the data were processed

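Expression was measured in 9 arrays, 3 of each line. The table that the authors deposited holds log2 values for 45101 probe sets (base taken from their range, 3.25 to 15.15). The submitters' processing notes name GCOS and Partek. For how signals were normalized and summarized, the steps were not given in the sources used here. Medians of the arrays were 6.87 to 6.95, and the values were used as they stand. The 64 controls were left out. Symbols came from the platform annotation: 34958 probe sets had 1 symbol and 932 several, none of which names a member. Testing was limited to the 27022 probe sets whose mean lay above the 40th percentile.

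Lines were compared with limma 3.58.1 (lmFit, eBayes) in R 4.3.3, in 1 model of all 9 arrays. A check of the fit on simulated arrays used only the spread between arrays of a line. It cannot cover variation between lines of 1 genotype. A gene is represented by its brightest probe set; its other probe sets are given beside it. Marker and pathway lists are read from that probe set. Members, lists and tests were chosen with earlier results of these data known. Named genes were all members, called pathway genes, Igf2, Igf2r, Irs2 and Igfbp1, the largest and the called markers of a list, and markers below the low-value cut. Grb14, Pappa, Emcn, Kdr, Esam and Map2 were named after their values were seen. Same-numbered arrays deviated together to some degree in KO and WT replicate 1 (r = 0.30) and little in the other pairs (r from -0.15 to 0.16). No pairing was used in the main fit. Summed levels of a list are the log2 of the sum of linear values. Precision is limited by how few arrays and lines there are. Alternatives covered normalization, filter, probe set choice, variance model, fold minimum, replicate block and left-out arrays. Figures were drawn with matplotlib 3.10.9.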

Additional observations from a re-analysis of the deposited data

How the results depend on the processing

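The 2-fold minimum decided most counts. Without it 8 members differed in KO against WT, 7 in Het against WT and 8 in KO against Het, and with a 1.5-fold minimum 5, 1 and 4 did, against 2, 0 and 1 at 2-fold; of all genes 50.6%, 32.6% and 49.2% did without it and 9.57%, 1.82% and 6.9% at 1.5-fold. In the same order, member probe sets called were 23, 19 and 19 without a minimum and 16, 1 and 14 at 1.5-fold, against 9, 0 and 6, where all probe sets gave 47.1%, 36.6% and 46.1% and then 8.44%, 3.29% and 6.31%. Other pathway genes called were 22, 19 and 29 without a minimum and 9, 2 and 8 at 1.5-fold, against 2, 0 and 1. Median centring left 0 members called in KO against Het. A filter at the 60th percentile left 1 other pathway gene in KO against WT and 0 in KO against Het, since Fbxo32 was then not tested, and the mean of probe sets left 1 in KO against WT.

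Over left-out arrays, members called were 2 to 3 in KO against WT, 0 in Het against WT and 1 in KO against Het, member probe sets called were 9 to 10, 0 and 5 to 7, and other pathway genes 2 to 3, 0 and 0 to 1. Signs turned only for differences near 0: Igfbp2 in KO against WT (0.000897 with median centring, -0.0326 to 0.0079 over left-out arrays), Igfbp6 in Het against WT (-0.0721 to 0.0011 over left-out arrays) and Insr in KO against Het (0.0516 with median centring, -0.0265 to 0.0343 over left-out arrays). With the replicate number as a block the members called stayed at 2, 0 and 1, and all called probe sets at 777, 97 and 442 in the same order. Low values limit Igfbp1 and the dimmer probe sets of Insr, though not its brightest. The brightest probe sets of all, such as those of Igf2, Igfbp4 and Igfbp7, lie near the upper end of the deposited values.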
